A study of Rattus norvegicus with 8 samples.

Results

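The small leucine-rich proteoglycan genes Dcn, Bgn, Lum and Ogn, the matrix Gla protein gene Mgp, the matricellular genes Sparc, Postn and Thbs2, the fibronectin gene Fn1 and the tetranectin gene Clec3b were followed in the rat neurohypophysis at 2 ages. They were taken by symbol, and all 10 were among the 33294 genes listed. The neurohypophysis, or neural lobe, is the posterior part of the pituitary, where axons of hypothalamic vasopressin and oxytocin neurons end among glia (pituicytes) and capillaries. Lobes came from male Sprague Dawley rats of 35 days (4 libraries, called the control age in the labels) and 125 days (4 libraries), killed under isoflurane by perfusion with phosphate-buffered saline, with no other treatment labelled. Whether each library came from a separate animal is not labelled, so the spread behind the p-values is that between libraries and may be technical.

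Fibroblasts of the meninges, the capsule and the perivascular spaces are a main source of these proteins in nervous tissue. Small leucine-rich proteoglycans bind fibrillar collagen, set the width and spacing of its fibrils, and hold growth factors such as TGF-beta in the matrix. Matricellular proteins are secreted into the matrix with little structural role of their own and act on cell adhesion, growth factor activity and collagen handling, and many are made most during growth and repair. These genes are not specific to fibroblasts: endothelial cells, mural cells and glia are known to express Sparc, and bone-forming cells express Bgn, Ogn, Sparc, Postn and Mgp.

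Each library held between 28429133 and 58696254 recovered reads, and the values given are counts scaled to a common depth by the authors, not corrected for gene length, so levels were not compared between genes. The first principal component, with 53.4% of the variance, separated the ages. The next, with 21.3%, set 35-day replicate 3 (-59.7) apart from the other young libraries (21.8 to 29.3), and the same library had the highest level of anterior lobe markers. Where a named gene gained or lost its call without it, both values are given. All 18 fibroblast and meningeal markers checked were detected, as were markers of vessels, pituicytes and microglia, so the label of a fibroblast set describes where these genes are best known and not the only cells that could carry them here.

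Of the 10 genes, 9 were lower at 125 days and 0 were higher, at a Benjamini-Hochberg adjusted p below 0.05 in limma on log2(value + 1). Across the 17919 genes tested in the same fit, 17.7% were called, 8.87% as lower and 8.85% as higher. The log2 change (125 minus 35 days) ran from -1.51 for Postn to -0.19 for Thbs2, the member that did not pass, with a median of -0.92 beside 0.01 over all genes tested. In 8 of the 10 genes every library of 125 days was below every library of 35 days, a separation in that direction seen for 11.5% of all genes tested. All 10 passed the filter on low values in both ages, and no library held fewer than 186 recovered reads for any of them. Of the 9 calls, 6 (Postn, Sparc, Mgp, Clec3b, Lum and Bgn) held whichever library was left out. Over the 8 fits that each left out 1 library, between 6 and 9 of the 10 genes were lower and none was higher, with the low of 6 when 35-day replicate 2 or 125-day replicate 3 or 4 was the one missing. Over the same fits, between 1894 and 5495 of the 17919 genes were called in either direction. The most came without 35-day replicate 3, where 14.8% of all genes tested were called as lower and 15.9% as higher.

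In the reference promoter table, 4 of the 10 genes were found, all of them lower at 125 days. The 160 bases before their start sites (RefSeq, build GRCr8, 5′ to 3′ on the strand of the gene) are shown, from the largest fall to the smallest of these 4. Thbs2 and Dcn, with the smallest changes of the 10 genes, were not among them. Capitals mark 4 sets of letters on either strand. These are the TATA box letters TATAAA, the purine run that reads GGAGG, the box known as CCAAT, and the TEAD factor letters, which read GGAATG. A last set, the AP-1 letters TGANTCA, was searched too.
Postn (chr2:140677901-140678060, plus strand): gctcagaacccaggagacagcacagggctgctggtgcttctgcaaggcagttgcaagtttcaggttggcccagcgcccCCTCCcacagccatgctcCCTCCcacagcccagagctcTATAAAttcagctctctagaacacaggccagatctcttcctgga
Sparc (chr10:40038817-40038976, minus strand): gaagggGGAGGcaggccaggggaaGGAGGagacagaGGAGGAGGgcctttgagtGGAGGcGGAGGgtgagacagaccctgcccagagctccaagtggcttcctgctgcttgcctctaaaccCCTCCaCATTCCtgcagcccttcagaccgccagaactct
Lum (chr7:34245546-34245705, plus strand): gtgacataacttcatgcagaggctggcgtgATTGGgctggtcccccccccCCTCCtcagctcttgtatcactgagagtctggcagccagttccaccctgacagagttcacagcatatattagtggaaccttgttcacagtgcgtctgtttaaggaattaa
Ogn (chr17:15258996-15259155, minus strand): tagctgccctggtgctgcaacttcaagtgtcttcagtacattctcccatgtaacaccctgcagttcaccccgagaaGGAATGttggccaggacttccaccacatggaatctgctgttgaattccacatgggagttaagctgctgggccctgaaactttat
Postn and Sparc, with nearly the same fold change, differed in these letters. Postn had TATAAA 44 to 39 bases before its start, a run found within 250 bases before the start in 12.9% of the 33469 promoters of the table, and 2 copies of GGAGG on the other strand. Sparc had no TATAAA in its 250 bases and 7 copies of GGAGG, 6 on its own strand, 2 of these overlapping by 2 bases, and 64.7% of the promoters held at least 1. Lum held 1 GGAGG and 1 CCAAT, both on the other strand, and CCAAT was found in 34.0% of the promoters. Ogn had 1 GGAATG, as did Sparc, a run found in 12.1% of the promoters. The TATAAA letters of Ogn lay outside the stretch shown, 224 to 217 bases before the start, counting both strands. TGANTCA was in none of the 4 and in 6.34% of all promoters. These matches are letters only, and no binding was measured. Dcn, Bgn, Mgp, Fn1, Thbs2 and Clec3b are named without a sequence.

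Decorin, biglycan, lumican and osteoglycin, encoded by the 4 small proteoglycan genes, share a core of leucine-rich repeats. All 4 fell, by between 1.42-fold and 1.99-fold. Dcn, whose protein binds collagen I fibrils and TGF-beta, had depth-normalized counts of 12096.5, 11243, 11212 and 9901 in 35-day replicates 1 to 4. It had 7010.1, 9877, 7085 and 7488 in 125-day replicates 1 to 4. The ages met without overlapping, since 125-day replicate 2 (9877) lay just under the lowest 35-day library (9901). Dcn fell by 0.51 on the log2 scale (SE 0.13, limma adjusted p = 0.0214), and it no longer passed when any 1 of 35-day replicates 1 and 2 and 125-day replicates 1, 3 and 4 was dropped (adjusted p = 0.0568 to 0.0742).

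**Figure D1:**
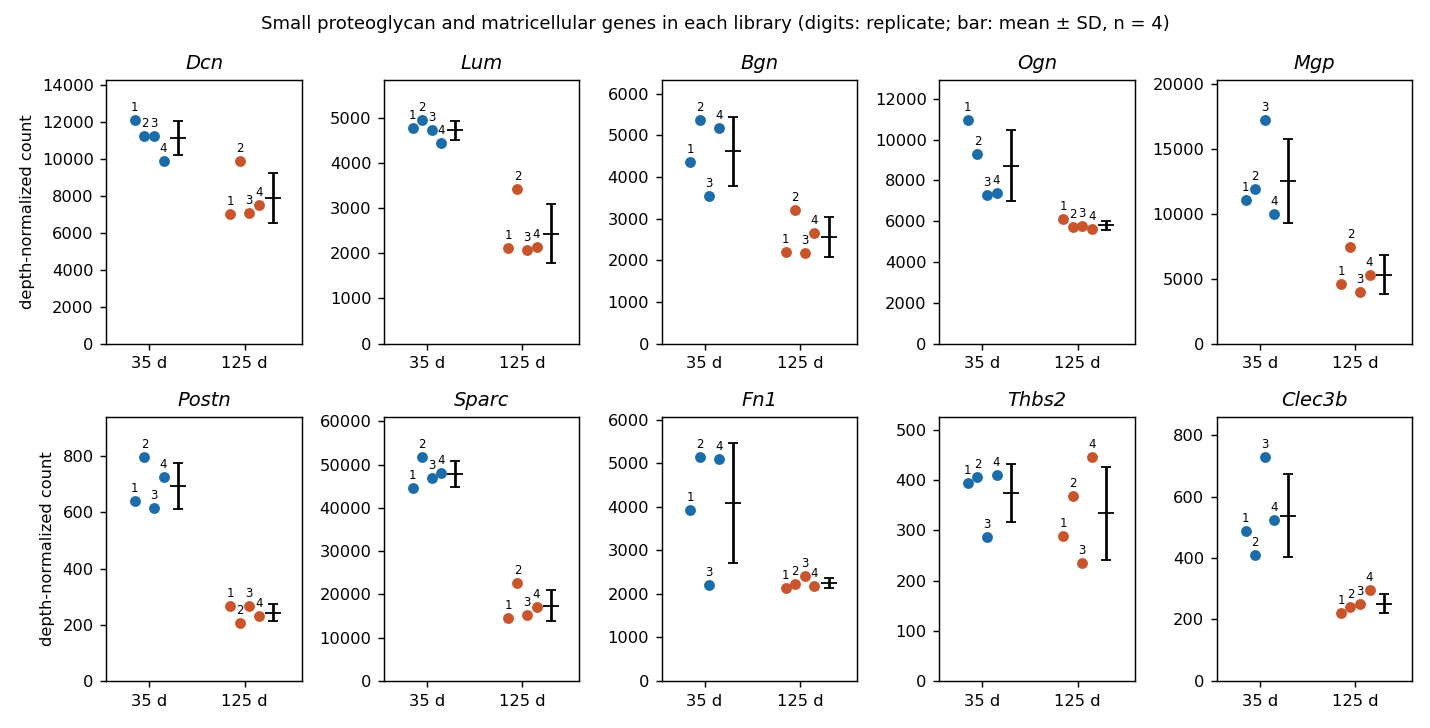
Depth-normalized counts of the 10 genes in each of the 8 libraries, with 35 days in blue and 125 days in orange, the replicate number above each point, and black bars for mean ± SD (n = 4). Apart from Fn1, where 35-day replicate 3 (2199) fell among the 125-day libraries, and Thbs2, each panel shows the 125-day points below all 35-day points.

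Bgn encodes biglycan, the closest relative of decorin, which also signals through Toll-like receptors when released. It was at 4360.45, 5366, 3537 and 5177 in the 35-day libraries and at 2186, 3195, 2174 and 2650.2 in the 125-day libraries. The highest old library was replicate 2 and the lowest young library replicate 3, and they stayed apart. The log2 change was -0.85 (SE 0.16, adjusted p = 0.00630).

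Lum encodes lumican, a keratan sulfate proteoglycan that limits fibril width. It had the tightest young group of the 10 genes, at 4787, 4957, 4737 and 4449, a coefficient of variation of 4.46%. At 125 days replicate 2 was at 3433, while the other libraries were at 2069 to 2145. Lum fell by 0.99 on the log2 scale (SE 0.16, adjusted p = 0.00222), and by 1.17 without that replicate.

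Ogn, encoding osteoglycin (mimecan), showed the opposite spread, wide at 35 days and narrow at 125 days. The young libraries were at 10962, 9274, 7278 and 7399.6, with replicate 1 highest. The old libraries were at 6124, 5702, 5753 and 5618, a coefficient of variation of 3.86% against 20.0% at 35 days. Its log2 change was -0.57 (SE 0.13, adjusted p = 0.0166), which no longer passed when 35-day replicate 2, 125-day replicate 3 or 125-day replicate 4 was dropped (adjusted p = 0.0513 to 0.0556).

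Dcn and Lum, and Ogn, each sit in a run of small proteoglycan genes on their chromosome. In the reference gene table (GRCr8, used for order only) Dcn, Lum, Kera and Epyc follow one another on chromosome 7, and Ogn, Omd and Aspn follow one another on chromosome 17 with Ecm2 close by. Kera, encoding keratocan, had values from 0 to 14.2 and Epyc, encoding epiphycan, from 0 to 10.9 over the 8 libraries, so neither was tested. On chromosome 17 all 4 genes were detected. Ecm2 was at 814, 797, 488 and 612 in the young libraries and at 253, 282, 251 and 247 in the old ones. Its log2 change was -1.36 (SE 0.17, adjusted p = 5.03e-04). Aspn, encoding asporin, went from 254 ± 45.3 to 126 ± 27.7 (SD, n = 4; log2 change -1.02, SE 0.20, adjusted p = 0.00636). Omd, encoding osteomodulin, did not pass (log2 change -0.66, SE 0.22, adjusted p = 0.0635), and its highest young library, replicate 1 at 974, was also the highest for Ogn. It passed when 35-day replicate 3 (-0.73, adjusted p = 0.0342) or 35-day replicate 4 (-0.83, adjusted p = 0.0247) was dropped. Omd also passed in DESeq2 (adjusted p = 0.0142), with the replicate block (0.0457), with library weights (0.00180) and with the anterior lobe level held (0.0146). Ecm2 and Aspn thus had larger estimates than Ogn, a difference that was not tested.

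Mgp, encoding matrix Gla protein, a vitamin K dependent inhibitor of calcification made by vascular cells and fibroblasts, was at 11089, 11895, 17230 and 9954 at 35 days. At 125 days it was at 4559.9, 7431, 3969 and 5287. No libraries of the 2 ages overlapped, and replicate 3 stood highest among the young and replicate 2 among the old. The gene fell by 1.25 on the log2 scale, or 2.37-fold (SE 0.21, adjusted p = 0.00358). Of 6 genes fixed for vitamin K dependent carboxylation and its substrates, 1 fell, Bglap, which encodes the bone protein osteocalcin. The carboxylase gene Ggcx (log2 change -0.19, SE 0.11, adjusted p = 0.266) and Vkorc1, which recycles the vitamin (0.08, SE 0.18, adjusted p = 0.791), did not pass. Vkorc1 was higher once 35-day replicate 3 was dropped (log2 change 0.28, adjusted p = 0.0181). With 35-day replicate 3 left out, 2 of these 6 genes were lower and 2 higher, beside 14.8% and 15.9% of all genes tested. With 125-day replicate 2 left out 2 were lower.

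Postn and Sparc had the largest falls of the 10 genes, 2.85-fold and 2.78-fold. Postn encodes periostin, which acts in collagen crosslinking and binds integrins. Its young libraries were at 642, 796, 616 and 727 and its old libraries at 267, 206, 267 and 232, so the lowest young value was over 2-fold the highest old value. The log2 change was -1.51 (SE 0.13, adjusted p = 6.80e-05), and -1.57 to -1.44 over the fits without 1 library. Sparc encodes osteonectin, a collagen-binding glycoprotein that acts in collagen assembly. It was at 44469, 51664, 46779.9 and 48021 at 35 days, and at 14552, 22598.5, 15328 and 17066 at 125 days. The lowest young library again stood far above the highest old one, which was replicate 2, and the log2 change was -1.48 (SE 0.15, adjusted p = 1.76e-04).

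Thbs2, encoding thrombospondin 2, an inhibitor of angiogenesis that also regulates matrix metalloproteinase uptake, was the member with no call. Its counts were 394, 407, 288 and 409.8 at 35 days and 288, 368, 235 and 446 at 125 days. The ages overlapped over most of their range, and the highest value of all was in an old library, replicate 4. The log2 change was -0.19 (SE 0.20, adjusted p = 0.567), and -0.31 (SE 0.19, adjusted p = 0.241) without 35-day replicate 3. Smoc2, its neighbour on chromosome 1 and a relative of Sparc, did not pass either (log2 change -0.11, SE 0.18, adjusted p = 0.720).

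Fn1 encodes fibronectin, the adhesive glycoprotein on which collagen and other matrix proteins assemble. Its young libraries were at 3915, 5133, 2199 and 5093, and its old libraries at 2142, 2226, 2414 and 2186. Replicate 3 of 35 days lay inside the old range, and the other 35-day libraries were far above it. The log2 change was -0.79 (SE 0.24, adjusted p = 0.0439). Without 35-day replicate 3 it was -1.06 (SE 0.10, adjusted p = 8.24e-05), and without any 1 of the other 7 libraries the call was lost (adjusted p = 0.0836 to 0.114). Coverage of single exons was not analysed here, so the splice forms of fibronectin could not be told apart.

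Clec3b encodes tetranectin, a lectin-like protein that binds plasminogen. It was at 487, 411, 728 and 524 at 35 days and at 222, 239, 249.6 and 295 at 125 days, with no overlap. As for Mgp, the highest young library was replicate 3. The log2 change was -1.07 (SE 0.18, adjusted p = 0.00276), and -0.91 without that replicate.

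**Figure D2:**
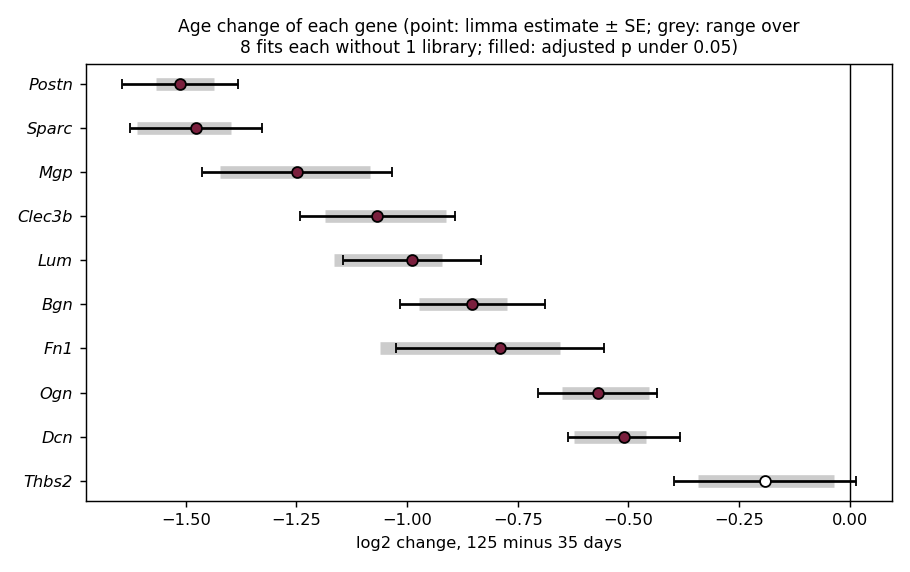
Log2 change of each gene between 125 and 35 days, as the limma estimate with its SE. Grey bands give the range over 8 fits that each leave out 1 library, and filled points have an adjusted p below 0.05. Postn (-1.51) and Sparc (-1.48) lie farthest from 0, Thbs2 (-0.19) has the only open point, and Fn1 has the widest SE (0.24).

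The libraries did not deviate from their age mean in the same way for all 10 genes. Among the young libraries, replicate 3 was the lowest for 5 genes (Bgn, Ogn, Postn, Fn1 and Thbs2) and the highest for Mgp and Clec3b. Replicate 2 was the highest young library for 5 genes. Among the old libraries, replicate 2 was the highest for 5 genes (Dcn, Lum, Bgn, Mgp and Sparc) and the lowest for Postn.

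Because the age changes differed in size, the ratios between the 10 genes also shifted. Of the 45 pairs, 16 had a log2 ratio within a library whose 4 young and 4 old values did not overlap. How often pairs of other genes separate in this way was not counted, so this number describes these pairs only. Postn fell relative to 6 of its 9 partners and Sparc relative to 5, while Thbs2 rose relative to 5 and Dcn relative to 4. The log2 ratio of Dcn to Sparc went from -2.10 ± 0.18 to -1.14 ± 0.07 (SD, n = 4), and that of Dcn to Lum from 1.23 ± 0.08 to 1.71 ± 0.13. The ratio of Postn to Sparc was among the 29 that overlapped, as were all 9 ratios with Clec3b. These ratios use read counts not corrected for gene length, so they show a shift with age and not which gene is more abundant, and they were described without a test.

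**Figure D3:**
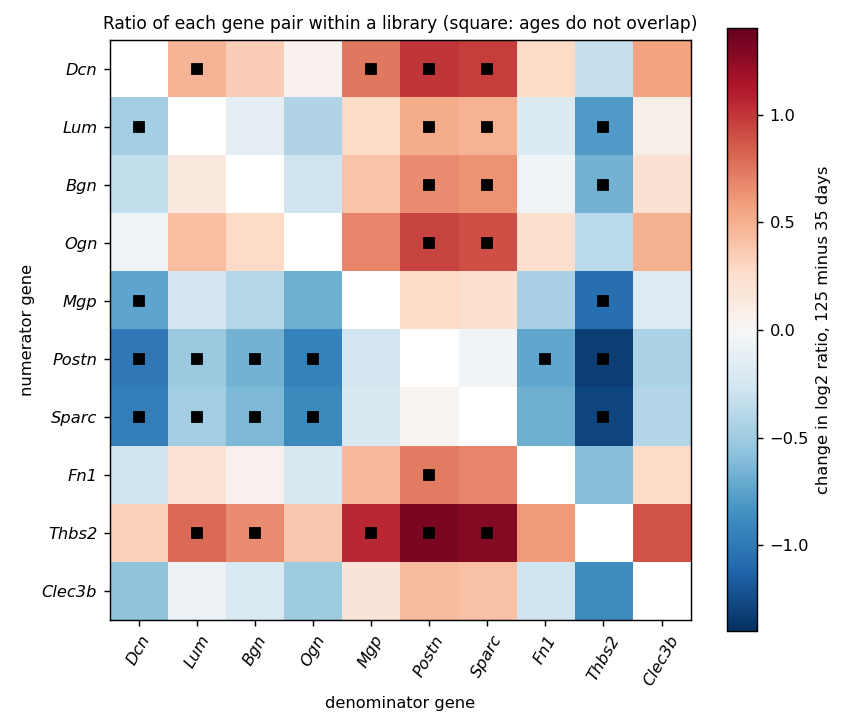
Change between 35 and 125 days in the log2 ratio of each row gene to each column gene, from the mean of 4 libraries per age. Red is a ratio that was higher at 125 days, and black squares mark the 16 pairs whose ages do not overlap. The rows of Postn and Sparc are mostly blue and those of Thbs2 and Dcn mostly red.

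The other genes of these families moved less uniformly. Of 11 other small leucine-rich proteoglycan genes listed, 8 could be tested, 3 of them lower and 0 higher, with a median log2 change of -0.54. Besides Ecm2 and Aspn, Tsku, encoding tsukushi, fell by 0.48 (SE 0.13, adjusted p = 0.0278), a call lost without any 1 of 5 libraries (35-day replicates 1 and 2 and 125-day replicates 1, 3 and 4, adjusted p = 0.0557 to 0.0871). Prelp, a relative of lumican that anchors basement membranes, was at 14014 ± 2952 and 14319 ± 2803 (SD, n = 4; log2 change 0.04, SE 0.18, adjusted p = 0.912). Leaving out 35-day replicate 3 gave 5 lower genes, in a fit that called 14.8% of all genes tested as lower. Leaving out any 1 of the 5 libraries named for Tsku gave 2.

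Other matricellular genes went in both directions, 4 lower and 3 higher of 19 tested, with a median of -0.36. Sparcl1, the closest relative of Sparc, fell by 1.30 (SE 0.14, adjusted p = 2.10e-04), from 10523 ± 1143 to 4302 ± 757. Tgfbi, a relative of Postn, fell by 0.81 (SE 0.13, adjusted p = 0.00253). In contrast Spock3 (log2 change 1.35, SE 0.16, adjusted p = 3.72e-04) and Spock2 (0.64, SE 0.11, adjusted p = 0.00414), proteoglycans of the same family as Sparc that are made in neural tissue, rose. Thrombospondin 1 (Thbs1; log2 change -0.59, SE 0.24, adjusted p = 0.116) did not pass. It passed when 35-day replicate 3 (-0.78, adjusted p = 0.0138) or 125-day replicate 2 (-0.78, adjusted p = 0.0399) was dropped, with the replicate block (adjusted p = 0.0234), with library weights (3.65e-04) and with the anterior lobe level held (0.0350). Leaving out 35-day replicate 3 gave 8 lower and 3 higher genes, beside 14.8% lower and 15.9% higher of all genes tested.

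Genes for fibrillar collagens, to which the small proteoglycans and Sparc bind, and for collagen assembly were lower in 11 of 16 and higher in 0, with a median of -0.75. Col1a1 was at 12945, 25111, 17155 and 23599 at 35 days and at 3292, 5419, 3426 and 3807 at 125 days. Col3a1 fell by 1.81 (SE 0.19, adjusted p = 2.03e-04), Col1a2 by 1.30 (SE 0.16, adjusted p = 5.30e-04) and the procollagen N-proteinase gene Adamts2 by 1.14 (SE 0.15, adjusted p = 7.04e-04). The prolyl hydroxylase genes P4ha1 (log2 change 0.17, SE 0.10, adjusted p = 0.2996) and P4ha2 (0.08, SE 0.10, adjusted p = 0.633) did not pass.

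Among receptors and binding partners of these proteins 4 of 19 tested were lower and 0 higher (median -0.31). The integrin subunit genes Itga8 (log2 change -1.31, SE 0.18, adjusted p = 8.95e-04) and Itga5 (-0.98, SE 0.20, adjusted p = 0.00918), whose products bind fibronectin, fell. Itgb1 (-0.34, SE 0.09, adjusted p = 0.0262) and the matrilin gene Matn2 (-0.41, SE 0.12, adjusted p = 0.0459) passed with smaller changes. Itgb1 no longer passed when any 1 of 35-day replicates 1 and 2 and 125-day replicates 1, 3 and 4 was dropped (adjusted p = 0.0644 to 0.0944), nor did Matn2 when one of these or 35-day replicate 4 was dropped (adjusted p = 0.0937 to 0.133). With all libraries kept, Itgb1 also failed without the filter (adjusted p = 0.0533), with the replicate block (0.0660) and with the anterior lobe level held (0.0593). Matn2 failed without the filter (adjusted p = 0.0548), with TMM scaling (0.0527), with scaling to totals without hormone genes (0.0504), without the trend (0.0726) and in edgeR (0.0520). Without the filter the list had 2 called genes, and in DESeq2 it had 9. Dropping any 1 of the 5 libraries named for Itgb1 left 2 lower genes in the list, while dropping 35-day replicate 3 gave 9 lower and 1 higher. In that last fit 14.8% of all genes tested were called as lower and 15.9% as higher.

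Enzymes that build chondroitin and dermatan sulfate, the sugar chains of decorin and biglycan, had a median change of 0.05. Of 20 tested, 1 was lower and 1 higher. The sulfotransferase gene Chst3 was at -0.73 (SE 0.18, adjusted p = 0.0212) and the polymerizing factor gene Chpf2 at 0.43 (SE 0.11, adjusted p = 0.0243). Chst3 no longer passed when any 1 of 35-day replicate 2 and 125-day replicates 1, 3 and 4 was dropped (adjusted p = 0.0585 to 0.0664), and Chpf2 when any 1 of 35-day replicate 2 and 125-day replicates 2, 3 and 4 was dropped (adjusted p = 0.0530 to 0.0754). The dermatan sulfate epimerase gene Dse did not pass (log2 change -0.16, SE 0.10, adjusted p = 0.313). The counts became 3 lower and 2 higher with 35-day replicate 3 dropped, 3 lower and 0 higher with 125-day replicate 2 dropped, and 0 in both directions with 35-day replicate 2 or 125-day replicate 3 or 4 dropped.

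In the TGF-beta list 4 of 14 were lower and 0 higher, with a median of -0.05. Tgfb2 fell by 0.92 (SE 0.19, adjusted p = 0.00822). Tgfb1 (-0.47, SE 0.14, adjusted p = 0.0433), Ltbp2 (-1.07, SE 0.27, adjusted p = 0.0241) and Ltbp4 (-0.72, SE 0.19, adjusted p = 0.0247), a ligand and 2 latent TGF-beta binding proteins, passed, and each failed when any 1 of 4 to 6 libraries was dropped. Those libraries were 35-day replicates 2 and 4 and 125-day replicates 3 and 4 for all 3 genes, with 125-day replicate 1 for Tgfb1 and Ltbp4 and 35-day replicate 1 for Tgfb1 (adjusted p = 0.0554 to 0.118). With all libraries kept, Tgfb1 failed without the filter (adjusted p = 0.0509), with scaling to totals without hormone genes (0.0515), without the trend (0.0621) and with the anterior lobe level held (0.107), as did Ltbp2 in the last of these (0.166). With any 1 of the 4 shared libraries dropped the list had 1 lower gene, and with 125-day replicate 1 dropped it had 2. The receptor genes Tgfbr1 (-0.01, SE 0.10, adjusted p = 0.969) and Tgfbr2 (-0.15, SE 0.17, adjusted p = 0.579) did not pass.

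**Figure D4:**
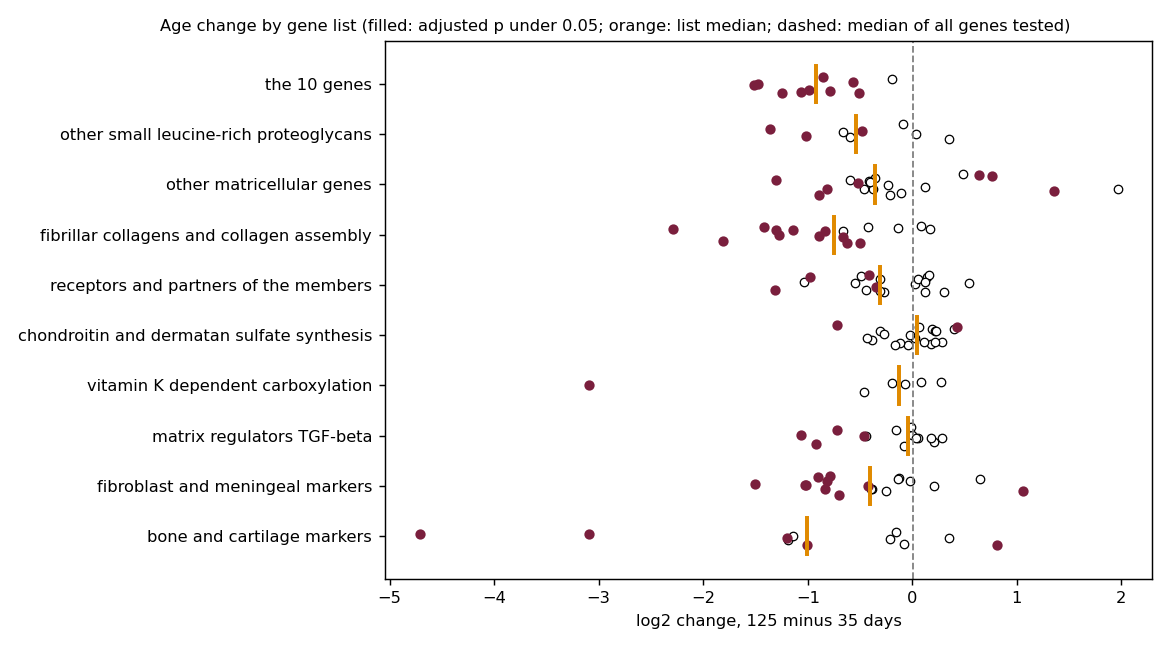
Log2 change between 125 and 35 days of every tested gene of the 10-gene set, the related lists and the fibroblast and bone marker lists. Filled points have an adjusted p below 0.05, orange bars are list medians, and the dashed line is the median of all genes tested (0.01). The 10 genes have a median of -0.92 and the chondroitin and dermatan sulfate enzymes one of 0.05.

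Genes whose profile over the 8 libraries was most like the average of the 10 were sought among 12801 other genes with a mean of at least 100, by the root mean square difference of centred log2 values. The closest were Rnd3 (0.061 log2 units), Wdhd1 (0.077), Twist1 (0.085), Tifab (0.1004), Cdh24 (0.115), Cdca7l (0.116), Prrx1 (0.117) and Tgfbi (0.117), against a median of 0.516 over these genes. The average was mainly a step between the ages, at 0.36 to 0.55 in the young libraries and -0.59 to -0.26 in the old. The search therefore favoured genes with a fall of similar size, and these had log2 changes of -0.99 (Cdca7l) to -0.81 (Tifab). Twist1 and Prrx1 were also in the fibroblast list and Tgfbi in the matricellular list, and the rest were in none of the lists used here. Among the 10 genes themselves, Bgn (0.148) and Lum (0.151) were nearest to this average and Thbs2 (0.425) farthest.

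Markers of several cell types differed in the same direction as the 10 genes. All 7 red blood cell and all 10 proliferation markers were lower, with median log2 changes of -2.04 and -2.55. In bulk tissue, fewer cells of a type and less RNA per cell cannot be told apart. Of 18 fibroblast and meningeal markers, 9 were lower and 1, Aldh1a2, higher. Fap (log2 change -1.50, SE 0.20), Cdh11 (-1.02, SE 0.16), Serpinf1 (-0.84, SE 0.16) and Prrx1 (-0.82, SE 0.10) fell. The fibroblast receptor gene Pdgfra (-0.39, SE 0.23, adjusted p = 0.281) and Dpt (-0.40, SE 0.35, adjusted p = 0.478) did not pass. The rest without a call were Scara5 (-0.25), Foxd1 (-0.14), Foxc1 (-0.13), Foxc2 (-0.02), Islr (0.20) and Slc6a13 (0.65). Scara5 as lower and Slc6a13 as higher were each called in 1 of the fits that left out a library (limma adjusted p = 0.0436 and 0.0424). Pdgfra was lower once 35-day replicate 3 was dropped (-0.60, adjusted p = 0.0182), with library weights (adjusted p = 0.00160) and with the anterior lobe level held (-0.94, adjusted p = 0.0114). The call of Aldh1a2 (1.06, SE 0.32, adjusted p = 0.0446) was lost without any 1 library other than 35-day replicate 3 and 125-day replicate 2 (adjusted p = 0.0880 to 0.124), and also without the filter or trend, with upper quartile scaling, in edgeR and with the replicate block (0.0508 to 0.0659). None of the 18 was at 0 in all libraries, and the mean log2 level of the list ran from 8.75 to 9.07 in the young libraries and from 8.40 to 8.71 in the old. Dropping 35-day replicate 2 or 125-day replicate 1, 3 or 4 left 6 lower genes and 0 higher. Pericyte and smooth muscle markers (8 of 11 lower, 1 higher) had levels of 9.79 to 10.3 and 9.10 to 9.75, and endothelial markers (8 of 11 lower) overlapped, at 10.7 to 11.1 and 9.90 to 10.8. Dropping 35-day replicate 1, 2 or 4 or 125-day replicate 1, 3 or 4 left 4 or 5 lower genes in each of these vascular lists. In the fibroblast and vascular lists the highest 125-day library was replicate 2, which was also the highest old library for Dcn, Lum, Bgn, Mgp and Sparc. The part of these cell types in the changes of the 10 genes was not tested.

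Bone and cartilage markers, whose cells also express several of the 10 genes, had a mean log2 level between 4.93 and 5.70 in the young libraries and between 4.38 and 4.64 in the old. Of 11 tested 4 were lower and Col2a1 was higher. The lower genes became 6 with 125-day replicate 2 dropped, 3 with 35-day replicate 2 dropped and 2 with the anterior lobe level held. Mepe and Matn1 stayed under 10 in every library. Ibsp, encoding bone sialoprotein, was at 70.6, 131, 214 and 95.4 at 35 days and at 4.06, 1.95, 2.52 and 6.84 at 125 days. Bglap was at 12.2, 67.2, 202 and 85.8 at 35 days and at 4.06 to 8.83 at 125 days (log2 change -3.09, SE 0.69, adjusted p = 0.0131), which did not pass once the fit held the anterior lobe level (log2 change -1.46, adjusted p = 0.156). In both genes 35-day replicate 3 was the highest library. The part of bone-forming cells in the changes of the 10 genes was not tested.

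Anterior lobe hormone and receptor markers were at a mean log2 level of 9.32, 12.3, 14.3 and 11.5 in the young libraries and 7.58 to 9.69 in the old ones, highest in 35-day replicate 3. In a fit that also held this level, 9 of the 10 genes were lower (14.8% of all genes called, 7.46% as lower and 7.37% as higher) and the median change was -1.11. The level itself differed between the ages (mean 11.8 at 35 days and 9.10 at 125 days), so this fit cannot fully separate it from age. In the same fit 6 fibroblast and meningeal, 6 pericyte and smooth muscle and 5 endothelial markers were lower, against 9, 8 and 8 without the level held. When 35-day replicate 3 was dropped 9 of the 10 were lower as well, where 30.7% of all genes were called, 14.8% as lower and 15.9% as higher. Intermediate lobe markers had mean log2 levels of 14.81 to 15.18 in the young libraries and 15.35 to 15.70 in the old. Pituicyte markers were at 11.95 to 12.24 in the young libraries and 11.21 to 11.85 in the old. Neither of these levels was held in a fit, and their part in the changes of the 10 genes was not tested.

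**Figure D5:**
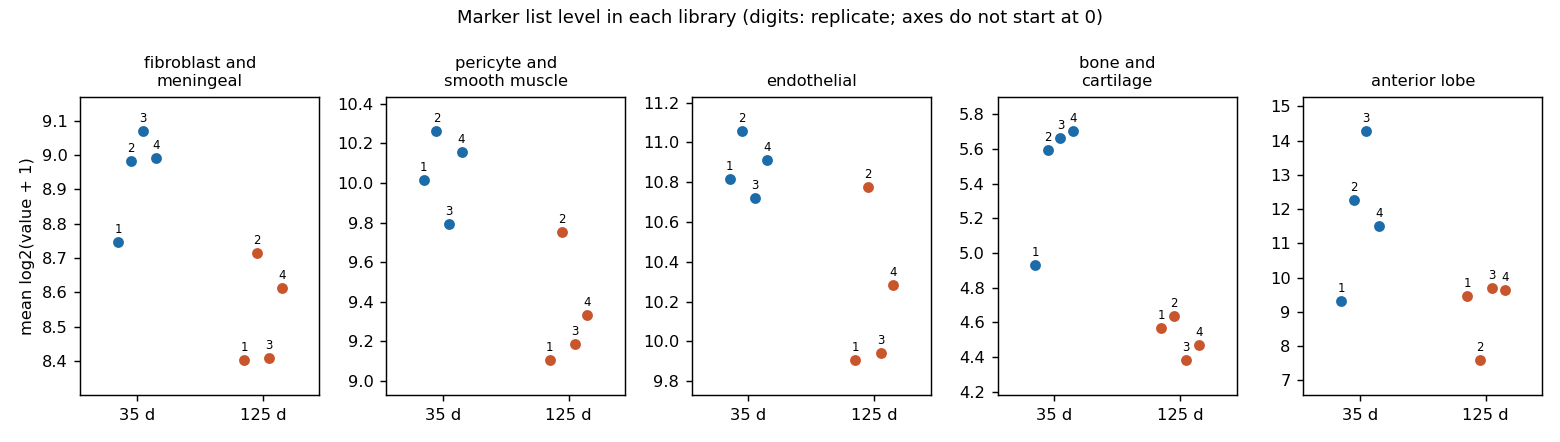
Mean log2(value + 1) of 5 marker lists in each library, 35 days in blue and 125 days in orange, with replicate numbers above the points. The fibroblast, pericyte and bone lists do not overlap between ages, while the endothelial and anterior lobe lists do. Replicate 2 of 125 days is the highest old library in the first 4 panels, and 35-day replicate 3 has the highest anterior lobe level (14.3).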

How the data were processed

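RNA was measured by poly(A)-selected sequencing in 8 libraries, grouped and numbered by their titles. The deposited table holds a depth-normalized signal per gene. Its values were recognised as read counts scaled by the authors with a single factor for each library, because 100% of them were whole multiples of a step that differed only between libraries (tolerance 0.001 reads). Tools listed in the submitters' processing notes are Trimmomatic 0.39, HISAT2 2.2.1, SAMtools 1.13, Subread 2.0.1, featureCounts and DESeq2 1.34.0, with build rn7. No source used here gives the annotation or the strand setting, so reads of overlapping genes cannot be told apart. Recovered reads ran from 28429133 to 58696254 per library, and no 2 libraries looked like copies.

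Log2(value + 1) was fitted with limma 3.58.1 (R 4.3.3), an empirical Bayes trend on intensity and age as the only term, two-sided. The 17919 genes that reached a value of 10 in 4 or more libraries were tested, and p-values were adjusted over all of them by Benjamini-Hochberg. Fold changes of low genes are understated by the added 1. The genes and lists were chosen with earlier results of these data known. From each related list the text names up to 4 called genes with the lowest adjusted p. Other list genes and the promoter letters were chosen after values were seen. Likeness took the 8 closest genes. Tnxb, of the matricellular list, is not analysed here. Alternatives were other pseudocounts, filters and scalings, library weights, no trend, tests of recovered reads with edgeR 4.0.16 and DESeq2 1.42.0, a replicate block, the anterior lobe level and leaving out each library. The test was checked on simulated data. Figures were drawn with matplotlib 3.10.9.

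The other marker lists gave, at an adjusted p below 0.05, 3 of 11 pituicyte, 4 of 9 microglial, 4 of 9 anterior lobe, 7 of 7 red blood cell and 10 of 10 proliferation markers lower and none higher, and 2 of 5 intermediate lobe markers higher. One library moved some of these counts: 7 pituicyte markers were lower without 35-day replicate 3 and 5 without 125-day replicate 2, 8 anterior lobe markers were lower without 35-day replicate 1, and intermediate lobe markers went to 0 higher without 125-day replicate 1 or 4 and to 1 without 35-day replicate 2 or 4 or 125-day replicate 2 or 3. With the anterior lobe level held, 0 intermediate lobe markers were higher.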

Additional observations from a re-analysis of the deposited data

Results flagged for a closer look

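Of 42 genes examined at each age, 8 groups of 4 libraries had 1 library set apart from the other 3 by Dixon's test, and chance gives about 1 in 20 groups of 84. In 125-day replicate 2, Dcn was at 9877 (others 7010.1 to 7488), Lum at 3433 (others 2069 to 2145), Ecm2 at 282 (others 247 to 253) and Spock2 at 17085 (others 20442 to 20672). In 35-day replicate 3, Thbs2 was at 288 (others 394 to 409.8). Among genes with almost no reads, Kera was at 14.2 in 35-day replicate 3 (others 0 to 2.07) and at 2.93 in 125-day replicate 4 (others 0), and Epyc was at 8.83 in 125-day replicate 3 (others 0 to 0.978).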

How the results depend on the processing

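The 10 genes kept a negative log2 change under every alternative run, and 8 or 9 were called as lower under each one that used all libraries. Fn1 lost its call without the intensity trend (adjusted p = 0.0711) and with the replicate block (adjusted p = 0.0538). The replicate numbers were not shown to pair the samples, since same-numbered libraries had correlations of deviations from -0.116 to 0.167; with the block 2718 genes were called in all, and 8 of the 10. With library weights the number of genes called was 7892 instead of 3174, and 74 instead of 32 genes of the related lists. Without 1 library, between 1894 and 5495 genes were called in all, between 6 and 9 of the 10, and between 20 and 53 in the related lists. The highest counts came without 35-day replicate 3. In edgeR 3170 genes and in DESeq2 4196 genes were called, with 9 of the 10 in each. No scaling moved the median change of all genes beyond -0.02 to 0.01. Depth did not limit the 10 genes, whose lowest count was 186 reads, but Kera and Epyc were too low to test. Library weights also brought calls for Ggcx, Vkorc1, Dse, Tgfbr2 and Smoc2 (adjusted p = 0.00678 to 0.0371).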
